A study of Equus caballus with 2 samples.

Results

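Serine, glycine, proline and asparagine are amino acids that a cell can make for itself, and 9 genes of this synthesis were followed in cultured equine endometrial fibroblasts: *PHGDH*, *PSAT1*, *PSPH*, *SHMT2*, *MTHFD2*, *ALDH18A1*, *PYCR1*, *ASNS* and *ATF4*. They were taken by gene symbol from the 21426 genes listed for both libraries, each symbol matched 1 row, and all 9 were among the 7658 genes with a mean of at least 10 counts per 1000000 unique molecular identifiers (UMIs) over the control and the TGF-β1 library. The study examined fibrosis of the mare's endometrium, and its single cell experiment asked how fibroblasts respond to factors linked to it. Fibroblasts of 4 mares with healthy or only mildly fibrotic endometrium, obtained from an abattoir, were grown to passage 3 and seeded on collagen-coated hydrogels. From 48 to 72 h, both groups were kept in medium with 0.1% BSA in place of serum. The control cells received nothing further, and the TGF-β1 cells received 10 ng/ml human recombinant TGF-β1 for 24 h. Cells of the 4 mares were pooled before loading, so each condition is 1 droplet library with no replicate, and the effect of a condition cannot be told apart from that of its library. MFGE8-treated cells were not analysed here.

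Serine is made from a glycolytic intermediate in a short pathway: PHGDH, phosphoglycerate dehydrogenase, takes the committed step, PSAT1 adds the amino group and PSPH removes the phosphate. In mitochondria SHMT2 then splits serine into glycine and a one-carbon unit carried by folate, which MTHFD2 oxidises for later use in purines and thymidylate. ALDH18A1 and PYCR1 take the first and the last step from glutamate to proline, ASNS makes asparagine, and ATF4 is a transcription factor known to drive many of these genes and to be controlled largely at translation. Collagen is unusually rich in glycine and proline, which ties these enzymes to matrix-producing fibroblasts. The culture medium also supplies amino acids: the study's methods name a high glucose DMEM with added non-essential amino acids, glutamine and pyruvate, whereas the labels name DMEM/F-12, and which of them was used cannot be told from these sources.

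Kept cells had a minimum of 20000 UMIs and 3500 genes, and mitochondrial UMIs below 4%. This left 3865 control cells with 210497250 UMIs and 4513 TGF-β1 cells with 219731144 UMIs, the median cell holding 50313 and 43142 UMIs. The libraries shared 6 barcodes, 2 of them among the kept cells. Doublets, which the study removed by genotype from the reads, were not removed here. Levels are given as counts per 1000000 UMIs (CPM), summed over the kept cells of a library, and differences as log2 ratios with the control library as denominator, with an exact 95% Clopper-Pearson interval, which covers counting error only. The reads come from the 3′ ends of transcripts, so levels are compared between libraries and not between genes. No test was made, and "higher" or "lower" describes these 2 libraries. All 8 fibroblast markers were found and summed to 21499 CPM in control and 21707 CPM in TGF-β1 cells, but 3 of them were more than 1.5-fold lower, *VIM* at 4399 and 2240 CPM, *PDGFRA* at 50.5 and 16.7 CPM and *PDGFRB* at 80.1 and 49.0 CPM. Endothelial markers summed to 0.926 and 0.610 CPM, and immune markers to 56.7 and 52.9 CPM, nearly all of the last from *CD68* and *CD14*. Of the 8 epithelial markers 6 were found, 2 more than 1.5-fold higher and 3 lower, and they summed to 134 and 12.3 CPM, almost wholly keratins, while the defining markers *EPCAM* and *CDH1* were at most 0.0285 CPM in both libraries. All 11 cycling markers found summed to 63.6 and 38.6 CPM. The part of the keratin difference in the results below was not tested, whereas leaving out cells with cycling markers moved none of the 9 ratios beyond its counting interval.

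*MTHFD2* and *ALDH18A1* stood apart from the other genes. *MTHFD2* was measured at 148 CPM in the control and 283 CPM in the TGF-β1 library, 1.91-fold higher, and *ALDH18A1* had 31.3 and 51.9 CPM, 1.66-fold higher. *PSAT1*, *SHMT2*, *PYCR1* and *ASNS* were between 1.14-fold and 1.17-fold higher, *PSPH* was nearly level, and *PHGDH* and *ATF4* were lower. Thus 7 of the 9 genes were higher after TGF-β1, where 51.4% of all 7658 genes were, and 2 of 9 were lower, where 48.6% were. A difference of more than 1.5-fold was reached by 2 of 9 genes upward, against 6.19% of all genes, and by 0 of 9 downward, against 6.48%. None of the 9 was more than 2-fold higher, a size reached by 2.30% of all genes. Over the 9 genes the median ratio was 0.19 on the log2 scale, beside 0.0082 over all genes, whose interquartile range ran from -0.19 to 0.20. *PSPH*, *SHMT2*, *ASNS* and *ATF4* lay inside that range.

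**Figure D1:**
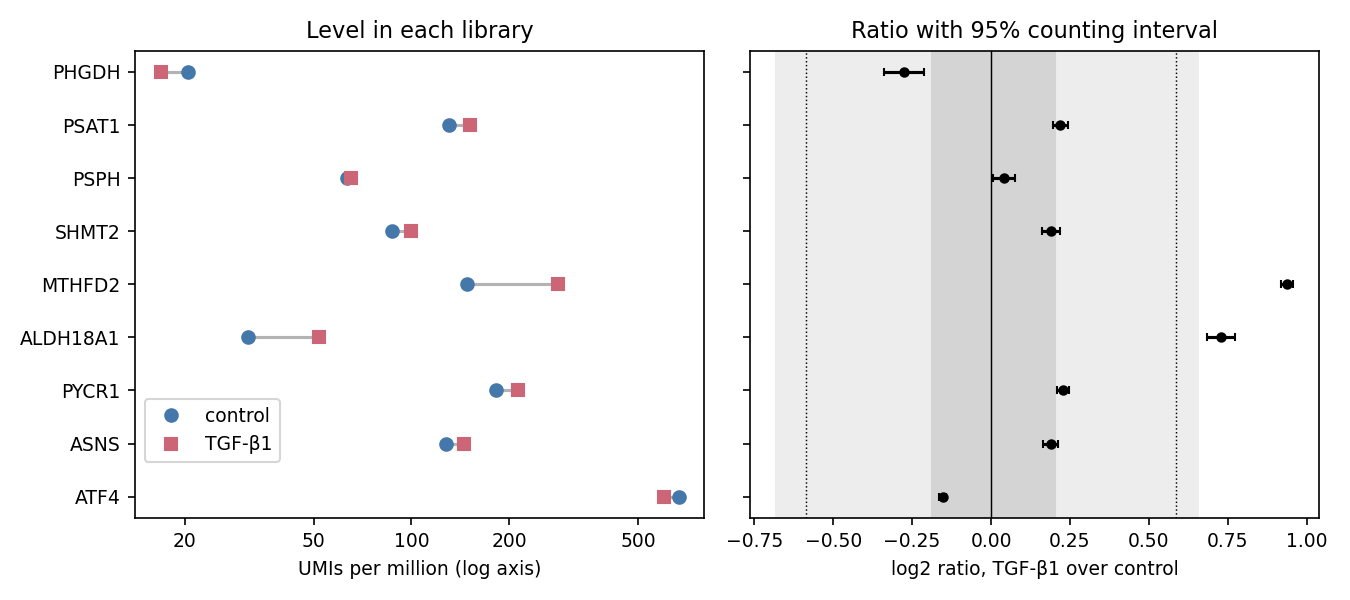
Levels of the 9 genes in counts per 1000000 UMIs on a log axis (left; circles control, squares TGF-β1, 1 library each) and log2 ratios against control with 95% counting intervals (right). The dark band is the interquartile range of the 7658 genes, from -0.19 to 0.20, the light band runs from the 5th to the 95th percentile, -0.68 to 0.66, and dotted lines mark 1.5-fold; *MTHFD2* at 0.94 and *ALDH18A1* at 0.73 lie beyond the light band.

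Along the serine pathway the 3 enzymes differed in direction. *PHGDH* (ENSECAG00000005228), the entry enzyme, gave 4316 UMIs or 20.5 CPM in the control library and 3719 UMIs or 16.9 CPM in the TGF-β1 library. Its log2 ratio was -0.28 (-0.34 to -0.21), which makes the TGF-β1 library 1.21-fold lower. *PSAT1* (ENSECAG00000017903), the transaminase of the middle step, gave 131 and 152 CPM from 27514 and 33444 UMIs, a log2 ratio of 0.22 (0.20 to 0.24). *PSPH* (ENSECAG00000020880), the phosphatase of the last step, gave 63.4 and 65.2 CPM from 13341 and 14321 UMIs, and its log2 ratio of 0.04 (0.01 to 0.07) was the smallest of the 9 in size. The entry enzyme was thus lower, the middle one higher and the last one nearly level in the same cells.

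In the mitochondrial steps that follow serine, *SHMT2* and *MTHFD2* were both higher but by different amounts. *SHMT2* (ENSECAG00000021295), which makes glycine, had 87.5 CPM in control and 99.8 CPM in TGF-β1 cells, from 18411 and 21937 UMIs. The log2 ratio was 0.19 (0.16 to 0.22). *MTHFD2* (ENSECAG00000017419), the folate dehydrogenase and cyclohydrolase next in line, gave 31147 and 62252 UMIs, and the interval of its log2 ratio of 0.94 (0.92 to 0.96) did not overlap that of *SHMT2*. Among the 7658 genes, 200 (2.61%) had a larger ratio than *MTHFD2*.

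For proline, the first enzyme differed more than the last. *ALDH18A1* (ENSECAG00000016847), which turns glutamate into the proline precursor, gave 6593 UMIs in control and 11402 UMIs in TGF-β1 cells, a log2 ratio of 0.73 (0.68 to 0.77). A larger ratio was found in 330 genes (4.31%). *PYCR1* (ENSECAG00000008836), the mitochondrial reductase that completes proline, had 183 and 214 CPM from 38463 and 47023 UMIs, a log2 ratio of 0.23 (0.21 to 0.25). The intervals of these proline enzymes were far apart.

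*ASNS* (ENSECAG00000012134), asparagine synthetase and a widely used readout of ATF4 activity, had 128 CPM in control and 145 CPM in TGF-β1 cells, from 26847 and 31949 UMIs. Its log2 ratio was 0.19 (0.17 to 0.21), and the interval overlapped those of *SHMT2* and *PSAT1*. *ATF4* (ENSECAG00000006931) itself went the other way, from 667 to 599 CPM on 140351 and 131707 UMIs. The log2 ratio of -0.15 (-0.16 to -0.14) is 1.11-fold lower, and since *ATF4* is controlled largely at translation, its transcript level does not measure the amount of protein.

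Single cells were compared after random thinning of each of them to the same depth of 20000 UMIs. The 8 enzymes, without *ATF4*, then summed to a median of 15 UMIs per control cell, with a 10th and 90th percentile of 9 and 23, and to 20 UMIs per TGF-β1 cell, with percentiles of 13 and 29. As a share of all UMIs this was 0.0784% and 0.102%. The cells of the libraries overlapped widely in this sum, from 0 to 38 UMIs in control and from 1 to 60 in TGF-β1 cells.

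The difference in *MTHFD2* was spread over the population of cells. Its median was 3 UMIs in control and 5 in TGF-β1 cells, the 10th percentile 1 and 2 and the 90th percentile 6 and 10, and cells with at least 1 UMI went from 90.7% (exact 95% interval 89.7% to 91.6%) to 97.5% (97.0% to 97.9%). *ALDH18A1* had a median of 0 UMIs in control and 1 UMI in TGF-β1 cells, and the share of cells with a UMI was 43.7% (42.2% to 45.3%) and 60.9% (59.4% to 62.3%). Without thinning that share was 73.3% and 84.5%. *PHGDH* was found in 31.7% (30.2% to 33.2%) and 28.3% (27.0% to 29.6%) of thinned cells, and in 57.9% and 49.8% of cells at full depth. *ATF4* was found in nearly every cell, with a median of 13 UMIs in control and 12 in TGF-β1 cells. All cells were fibroblasts in culture, so no cell type that should lack these genes was at hand to measure free RNA, and shares under full detection may include it.

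**Figure D2:**
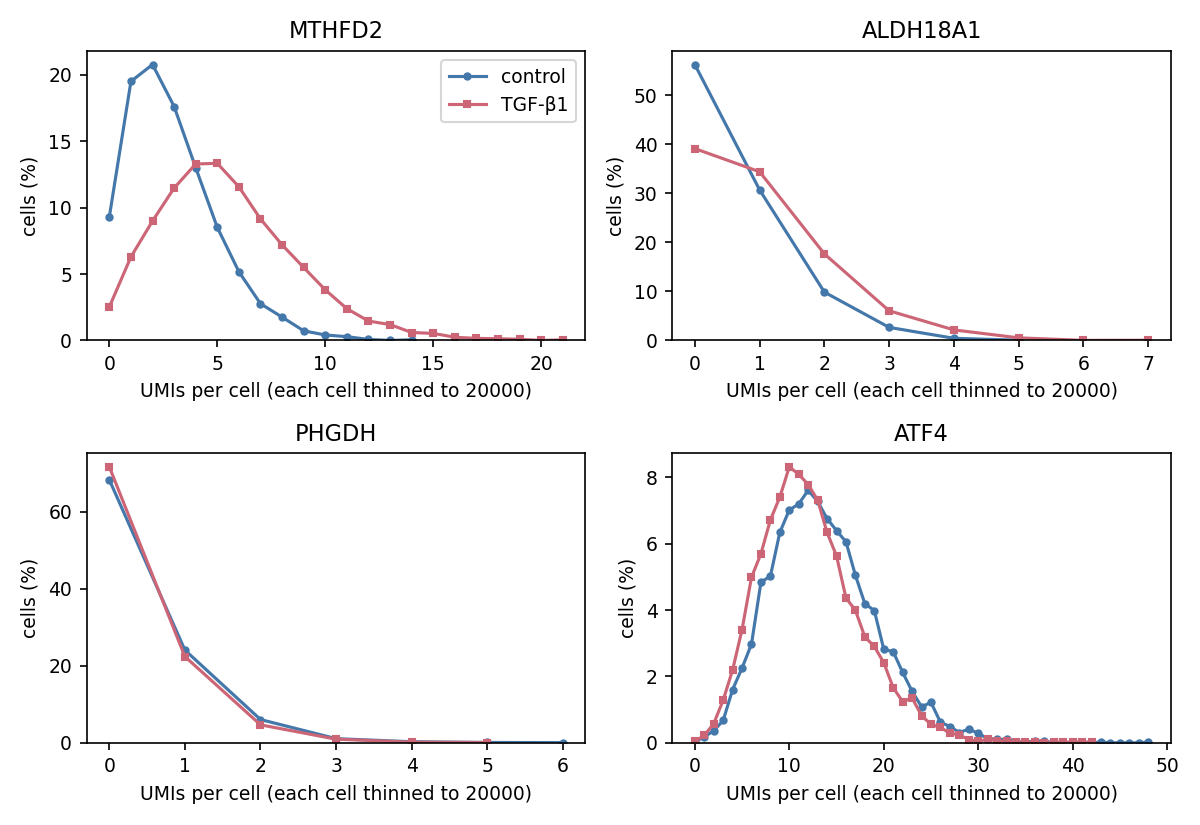
Percentage of kept cells (y axis) with each number of UMIs (x axis) of *MTHFD2*, *ALDH18A1*, *PHGDH* and *ATF4* after thinning each cell to 20000 UMIs; circles are 3865 control cells, squares 4513 TGF-β1 cells. The *MTHFD2* curve moves as a whole from a median of 3 to 5 UMIs with no separate group of cells, while *PHGDH* and *ATF4* lie slightly to the left after TGF-β1.

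The share of thinned cells with a UMI went from 88.7% to 92.1% for *PSAT1* and from 69.2% to 69.4% for *PSPH*. It went from 79.7% to 84.3% for *SHMT2*, from 95.6% to 97.0% for *PYCR1* and from 89.4% to 92.3% for *ASNS*. The variance of the thinned UMIs over cells divided by their mean is 1 for counting noise alone and grows with the mean, so it is given beside that mean and not ranked. It was 2.30 in control and 2.29 in TGF-β1 cells for *ATF4*, at means of 13.6 and 12.2 UMIs, and 1.53 and 1.87 for *MTHFD2*, at means of 2.88 and 5.45 UMIs.

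Clustering of the kept cells of both libraries gave 8 rebuilt clusters, numbered 0 to 7, with 110 to 789 control cells and 59 to 1129 TGF-β1 cells. Cluster 6 was cycling-like, with all 11 cycling markers above 2-fold of their level outside it, and held 134 control and 159 TGF-β1 cells. *MTHFD2* was more than 1.5-fold higher after TGF-β1 in all 8 clusters, with log2 ratios from 0.70 in cluster 6 to 1.03 in cluster 2. *ALDH18A1* was also more than 1.5-fold higher in all 8, from 0.60 in cluster 7 to 0.81 in cluster 3. Such a pattern in every cluster was shown by 2 of the 9 genes and by 2.85% of all genes. *PYCR1* (0.11 to 0.33) and *ASNS* (0.13 to 0.46) were higher in all 8 clusters by less, so that 4 of the 9 genes were higher in every cluster, beside 22.7% of all genes. *PHGDH* and *ATF4* were lower in all 8, 2 of the 9 genes beside 25.2% of all genes. The *ATF4* ratio ranged from -0.24 to -0.05 with 7 counting intervals below 0, and the *PHGDH* ratio from -0.70 to -0.11 with 5 below 0.

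The remaining genes did not keep 1 direction in every cluster. *PSAT1* was higher in 7 clusters, from 0.10 in cluster 2 to 0.53 in cluster 7, and was level in cluster 6 (-0.01). *SHMT2* was higher in 7, by up to 0.26, and its ratio was -0.15 in cluster 7. That cluster is the smallest, with 110 and 59 cells, and its intervals are the widest. *PSPH* was higher in 4 clusters and lower in 4, between -0.18 and 0.13, with 1 counting interval clear of 0.

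**Figure D3:**
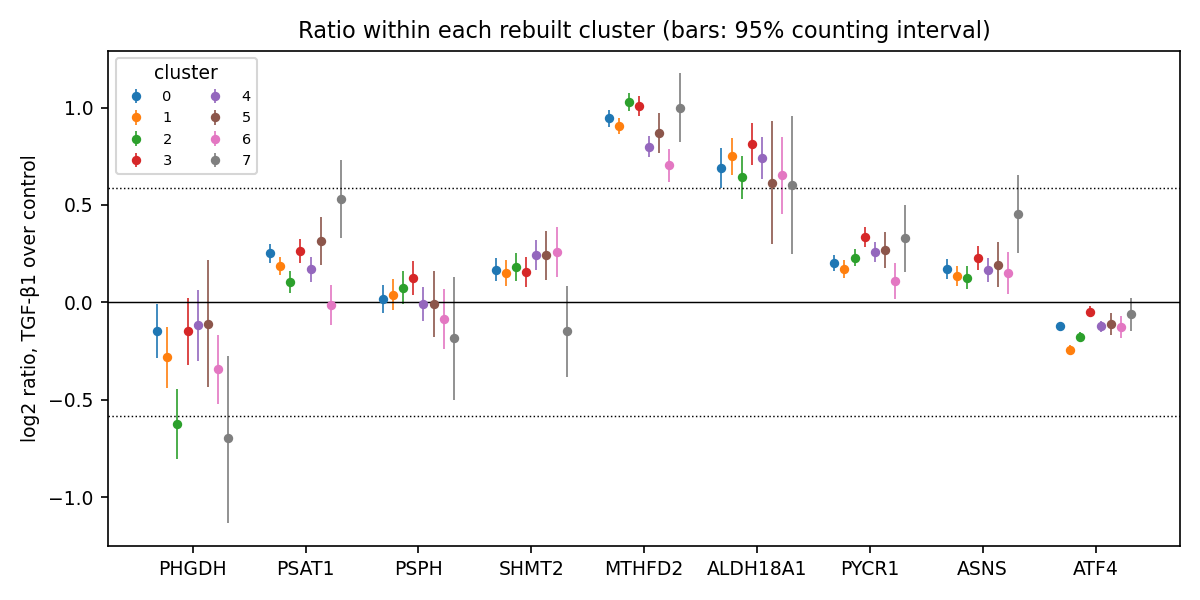
Log2 ratio against control (y axis) of each gene (x axis) within each of the 8 rebuilt clusters (colours); bars are 95% counting intervals and dotted lines mark 1.5-fold. All 8 points of *MTHFD2* (0.70 to 1.03) and of *ALDH18A1* (0.60 to 0.81) lie above the upper dotted line, and all 8 of *PHGDH* and of *ATF4* lie below 0.

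Levels within a library also differed among the clusters, and since the clusters were built from the same cells, these values are a description. In both libraries, cluster 5 had the highest level of *PYCR1* (257 CPM in control and 310 CPM in TGF-β1 cells), *SHMT2* (137 and 162 CPM), *ASNS* (169 and 193 CPM), *PSPH* (83.8 and 83.4 CPM) and *ATF4* (772 and 713 CPM). It had the lowest level of *ALDH18A1*, 20.7 CPM in control and 31.6 CPM in TGF-β1 cells. Cluster 5 held 156 control and 191 TGF-β1 cells, with the fewest UMIs per cell of the 8 clusters before thinning, a median of 41980.5 and 33731, and its leading genes were *MMP9*, *MMP1*, *CFD*, *CRABP2* and *COMP*. Thus the proline enzymes had opposite orders in that cluster, *PYCR1* at its highest and *ALDH18A1* at its lowest.

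*PHGDH* was the gene that varied most among clusters, 3.68-fold from the lowest to the highest in control and 3.95-fold in TGF-β1 cells. In cluster 6, the cycling-like one, it had 59.7 CPM in control and 47.0 CPM in TGF-β1 cells, while no other cluster was above 35.02 CPM in control or 22.7 CPM in TGF-β1 cells. Cells were also called cycling directly, by UMIs of at least 3 of the 11 cycling markers after thinning, which gave 95 control cells (2.46%) and 93 TGF-β1 cells (2.06%). These calls sit on a steep slope, since 98 and 88 further cells had 1 marker fewer. *PHGDH* had 67.0 CPM in the cycling cells and 18.9 CPM in the other cells of the control library, 3.55-fold more, and 49.2 and 15.9 CPM in the TGF-β1 library, 3.09-fold more. The other 8 genes lay between 0.780-fold and 1.24-fold of the other cells' level in either library. Of the cytosolic partner enzymes, *TYMS*, which makes thymidylate, had 89.4 CPM in cycling and 11.8 CPM in other control cells, and *SHMT1*, the cytosolic serine hydroxymethyltransferase, had 21.6 and 5.30 CPM. In the cells not called cycling, the log2 ratio of *PHGDH* after TGF-β1 was -0.25 (-0.31 to -0.18), and in the cycling cells it was -0.45 (-0.66 to -0.24).

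Partner genes were read from 9 lists, which were chosen with results of these data known and describe the same 2 libraries. Without the list of matrix genes they held 121 genes at a mean of at least 10 CPM, of which 68 were higher after TGF-β1, 14 by more than 1.5-fold, and 14 were lower by more than 1.5-fold. Over all 7658 genes these shares were 51.4%, 6.19% and 6.48%, against which the counts of each list below are to be read. In these lists as a whole the median log2 ratio was 0.03.

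The one-carbon and glycine partners had a median of -0.07 over 15 genes, 7 higher and 8 lower, and 3 were more than 1.5-fold lower. *TYMS* went from 14.3 to 6.58 CPM (log2 ratio -1.12), and was -1.06 in the cells not called cycling. *ALDH1L1*, a cytosolic folate dehydrogenase, went from 37.0 to 17.9 CPM (-1.05), and *SRR*, serine racemase, from 13.0 to 8.48 CPM (-0.62). The closest relatives of *MTHFD2* differed by less than it did, and not all in its direction. *MTHFD2L*, its mitochondrial paralog, had 22.3 and 21.2 CPM (-0.07), and *MTHFD1*, the cytosolic enzyme, had 29.3 and 25.9 CPM (-0.18). *MTHFD1L*, which releases formate in mitochondria, was higher in all 8 clusters, with 67.5 and 90.04 CPM (0.42). *SHMT1* had 5.84 and 4.87 CPM (-0.26).

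Among the proline and glutamate partners, the median was 0.07 over 13 genes, with 3 more than 1.5-fold higher. *OAT*, ornithine aminotransferase, which feeds the same proline precursor as ALDH18A1, had 123 CPM in control and 233 CPM in TGF-β1 cells, a log2 ratio of 0.93 (0.91 to 0.95), higher in all 8 clusters. *ARG2*, the mitochondrial arginase that makes ornithine, had 69.3 and 117 CPM (0.75), and *GOT1*, the cytosolic aspartate aminotransferase, had 19.2 and 29.6 CPM (0.62). *ALDH18A1*, *OAT* and *ARG2*, which lead to the proline precursor, were thus more than 1.5-fold higher, and *PYCR1* was not. *PYCR3*, the cytosolic reductase, had 12.2 and 14.3 CPM (0.23). *ALDH4A1*, which degrades proline, was low in both, at 3.05 and 2.77 CPM (-0.14), and *PRODH*, the first enzyme of that breakdown, was not matched by symbol. *PCK2*, a mitochondrial enzyme that can feed serine synthesis, had 56.7 and 45.3 CPM (-0.32).

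Other genes known as ATF4 targets were divided. Their median was -0.18 over 24 genes, with 8 higher and 16 lower, and 5 were past 1.5-fold upward and 6 downward. *FGF21*, a secreted stress hormone, had 31.0 CPM in control and 180.4 CPM after TGF-β1, and its log2 ratio of 2.54 (2.50 to 2.58) was the largest of any list. *VEGFA*, the vascular growth factor, went from 23.4 to 48.8 CPM (1.06). *CTH*, which makes cysteine, went from 8.29 to 15.7 CPM (0.92), and *BCAT1*, the branched-chain aminotransferase, from 46.5 to 80.8 CPM (0.80). The transcription factors *ATF5* (323 to 149 CPM, -1.12) and *ATF3* (288 to 147 CPM, -0.97) were lower, as were the mTORC1 inhibitors *DDIT4* (101 to 65.7 CPM, -0.62) and *SESN2* (32.1 to 21.1 CPM, -0.61). All 4 were lower in each of the 8 clusters, and *FGF21*, *VEGFA*, *CTH* and *BCAT1* were higher in each. *CBS*, the partner enzyme of *CTH*, was not matched by symbol.

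Amino acid transporters had a median of 0.24 over 13 genes, 11 higher and 2 lower, with 4 past 1.5-fold upward. *SLC1A3*, a glutamate and aspartate transporter, had 41.1 CPM in control and 153.5 CPM in TGF-β1 cells, a log2 ratio of 1.90 (1.87 to 1.94). *SLC43A1* (0.75) and *SLC7A5* (0.67), carriers of large neutral amino acids, and *SLC36A4* (0.60), which carries proline and tryptophan, were higher. *SLC7A11*, the cystine importer, was lower, from 369 to 208 CPM (-0.82).

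The cytosolic aminoacyl-tRNA synthetases, many of them ATF4 targets, had a median of -0.01 over 19 genes, with only *WARS1* past 1.5-fold, from 284 to 155 CPM (-0.87). The eIF2 kinases, *EIF2S1* of eIF2, subunits of its exchange factor and *EIF2A*, a separate initiation factor, had a median of 0.04 over 10 genes. None was past 1.5-fold in either direction. Markers of endoplasmic reticulum stress had a median of 0.29 over 14 genes, 11 higher and 3 lower, with *MANF* (362 to 571 CPM, 0.66) and *CRELD2* (62.2 to 95.1 CPM, 0.61) past 1.5-fold. The 3 lower ones, named after their values were seen, were the chaperone *HSPA5* (-0.15), the transcription factor *XBP1* (-0.19) and the stress sensor *ERN1* (-0.46), each lower in all 8 clusters. The mTORC1 and MYC list had a median of 0.03 over 14 genes, or -0.02 with a minimum of 1 CPM, with *MYC* (30.4 to 17.0 CPM, -0.83) and *RRAGB* (19.3 to 11.7 CPM, -0.72) past 1.5-fold downward. All 8 matrix genes were higher, with a median of 0.45, and 3 of them, *FN1*, *COL12A1* and *COL6A3*, were past 1.5-fold.

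**Figure D4:**
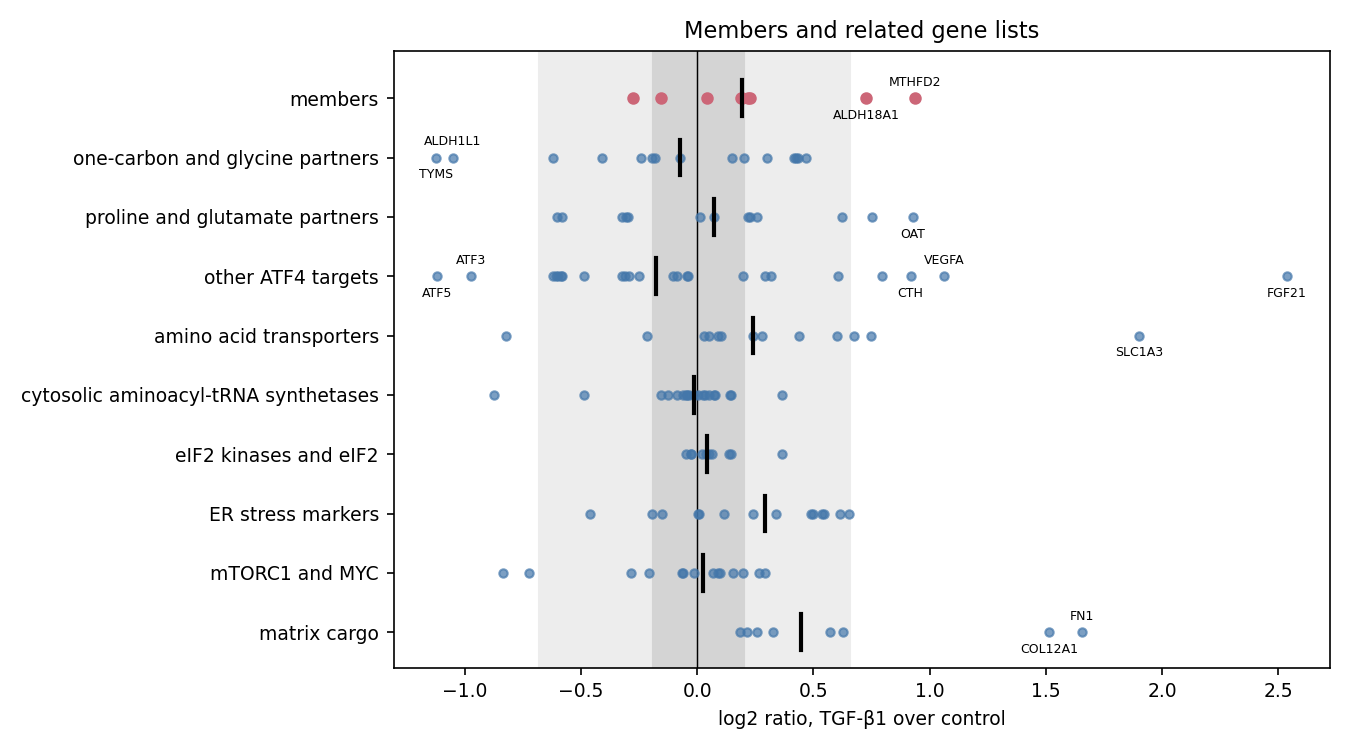
Log2 ratio against control (x axis) of the 9 genes (top row) and of the genes of each list with a mean of at least 10 CPM (points; 1 library per condition); black bars are medians, and bands are those of all 7658 genes (dark, interquartile range; light, 5th to 95th percentile). The 9 genes have a median of 0.19 and the other ATF4 targets a median of -0.18, with *FGF21* at 2.54 far to the right.

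Across single cells, the 9 genes were only weakly correlated. Pearson's r was taken on log2(UMI + 1) of the thinned cells within each library, so that the cells of a value share 1 library and 1 depth. Over the 36 pairs of the 9 genes the median r was 0.06 in 3865 control cells and 0.05 in 4513 TGF-β1 cells, beside 0.0039 and 0.0034 over all pairs of 6886 genes, of which 95% lay below 0.074 and 0.075. The lowest and highest pair had r of -0.04 and 0.13 in control and of -0.06 and 0.14 in TGF-β1 cells. These values are descriptions of sparse counts, with no p-value, and the pairs of all genes were not matched to the 9 genes in level.

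Among the 36 pairs, *PSAT1* had 0.13 and 0.13 with *MTHFD2*, 0.12 and 0.12 with *ASNS*, and 0.12 and 0.12 with *ATF4*. *MTHFD2* and *ASNS* had 0.12 and 0.13, and *PYCR1* and *ATF4* had 0.12 and 0.14. These 5 pairs were the ones at or above 0.1 in control cells, and they were also at or above it in TGF-β1 cells, where 9 pairs were. Over all pairs of the 6886 genes, 2.25% in control and 2.43% in TGF-β1 cells had r above 0.1. *ALDH18A1* had a median r with the other 8 genes of -0.02 in each library, and its highest was with *MTHFD2*, 0.06 and 0.02. Although *ALDH18A1* and *MTHFD2* were the genes with the largest ratio between libraries, an r of that size is not read as a relation at this depth, where *ALDH18A1* had a mean of 0.604 and 0.996 UMIs per thinned cell.

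**Figure D5:**
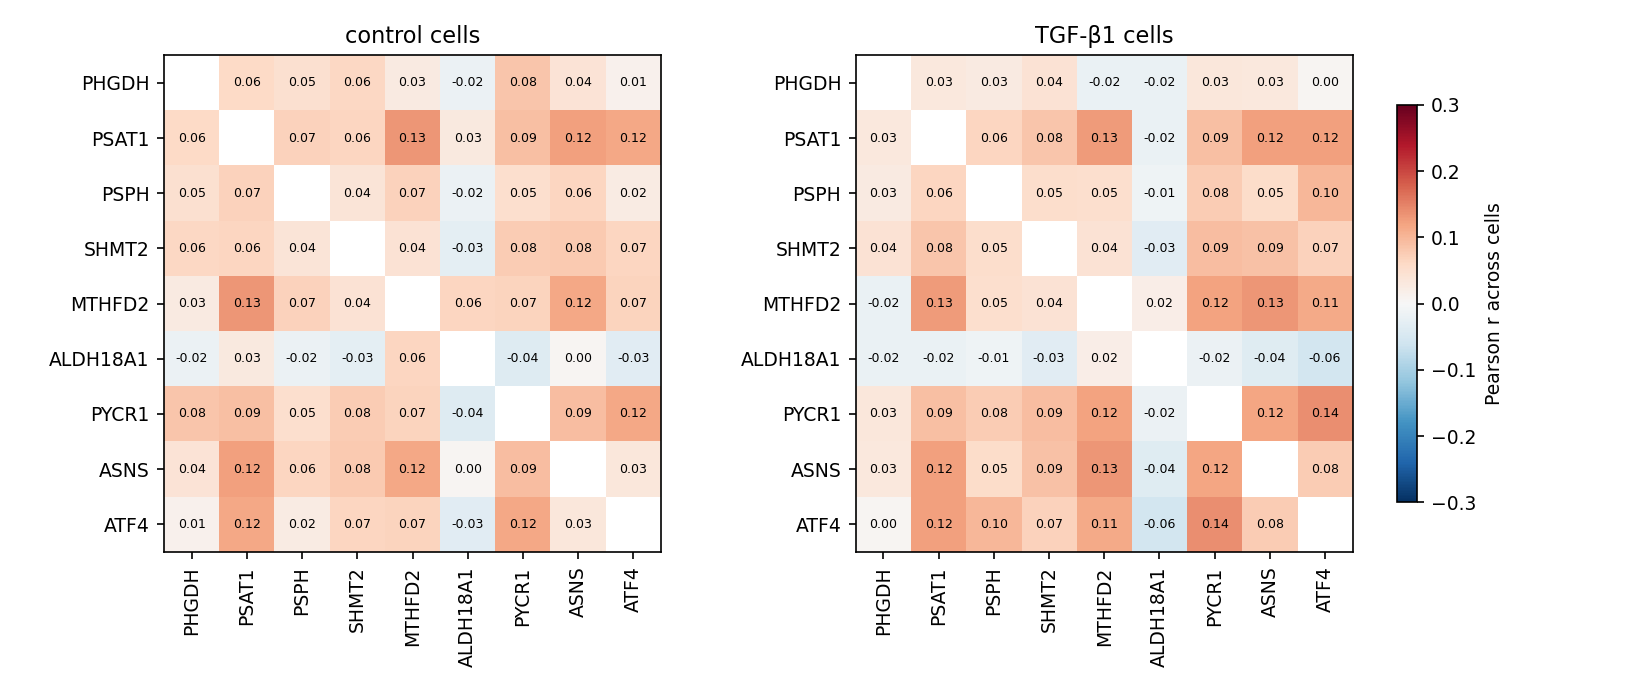
Pearson's r across thinned cells for each pair of the 9 genes in control cells (left, 3865 cells) and TGF-β1 cells (right, 4513 cells); the colour scale runs from -0.3 to 0.3 and values are printed in the squares. Values reach 0.13 in control and 0.14 in TGF-β1 cells, and the row of *ALDH18A1* is near or below 0.

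For each gene, the 5 genes with the highest r were taken in each library. The genes nearest to *MTHFD2* were mostly cytoskeletal. They were *ACTA2*, smooth muscle actin (0.27 in control and 0.25 in TGF-β1 cells), *TPM1*, a tropomyosin (0.25 in both), and *MYL9*, a myosin light chain (0.21 and 0.24). *TAGLN* and *ACTB* joined them in control, and *INHBA* and *DSTN* in TGF-β1 cells. *INHBA*, an activin subunit and not a cytoskeletal gene, ranked 3 there (0.24). Whether cytoskeletal genes are over-represented was not tested. With each cluster's mean removed, the r of *MTHFD2* with *ACTA2* was 0.24 in both libraries. The actins are abundant, *ACTA2* at 3608 CPM and *ACTB* at 5455 CPM in control cells. *ACTA2* and *DSTN* were also among the nearest genes of *ASNS*, in control and in TGF-β1 cells respectively. None of the other 8 genes was among the 5 nearest to *MTHFD2*, the closest being *PSAT1* in control (rank 40) and *ASNS* in TGF-β1 cells (rank 44).

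*PHGDH* was nearest to genes several of which are known from proliferating cells, *STMN1*, *HMGB1*, *ATAD2*, *DIAPH3* and *PCNA* in control (0.14 to 0.16) and *H2AZ1*, *DIAPH3*, *NME1*, *ATAD2* and *HMGB1* in TGF-β1 cells (0.10 to 0.12). Its r with *STMN1* in control cells was 0.16, and 0.07 without the cells called cycling. *STMN1* itself was higher after TGF-β1, from 64.6 to 292 CPM (log2 ratio 2.17), and was not among the 5 nearest there. *ATF4* was nearest to *EEF1A1* (0.32), *RPL9*, *RPL28*, *BTF3* and *RPL3* in control cells, all of the translation and ribosome machinery or bound to it and abundant, *EEF1A1* at 7104 CPM. In TGF-β1 cells it was nearest to *EIF4EBP1* (0.24) and *TRIB3* (0.22), both known ATF4 targets, and *RPL10A* and *GADD45A* were also among the 5 nearest. *PSAT1* was nearest to *EIF4EBP1* in both libraries (0.17 and 0.20), with *FGF21* next in TGF-β1 cells (0.14).

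The neighbours of the other genes also included abundant genes, among them cytoskeletal ones. *PYCR1* was nearest to *SERPINH1*, the collagen chaperone (0.24), in control and to *NME2* in TGF-β1 cells (0.23). *SHMT2* was nearest to *ACTG1* in control (0.18) and to *MYL6* in TGF-β1 cells (0.17), and *ASNS* to *MYL6* in both (0.18 and 0.16). *PSPH* was nearest to *EMP3* in control (0.12) and to *FGF21* in TGF-β1 cells (0.11). *ALDH18A1* was nearest to *MACF1*, a cytoskeletal linker, in control (0.13) and to *LTBP1*, which holds latent TGF-β in the matrix, in TGF-β1 cells (0.14). With each cluster's mean removed, r was lower for several of these neighbours. For *SHMT2* it was 0.15 with *ACTG1* and 0.09 with *MYL6*, and for *PYCR1* it was 0.17 with *SERPINH1* and 0.18 with *NME2*. It was 0.13 for *ASNS* and *MYL6* and 0.10 for *ALDH18A1* and *LTBP1* in TGF-β1 cells. For *ATF4* it was 0.25 with *EEF1A1* in control and 0.21 with *EIF4EBP1* in TGF-β1 cells, and for *PHGDH* it was 0.08 with *STMN1* in control and 0.05 with *H2AZ1* in TGF-β1 cells.

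With the 8 matrix genes, r of the 9 genes over 72 pairs ran from -0.20 to 0.15 in control and from -0.19 to 0.19 in TGF-β1 cells. *ALDH18A1* was the one gene with positive r to all 8 in both libraries, from 0.03 to 0.13. *MTHFD2* had 0.14 in control and 0.19 in TGF-β1 cells with *COL12A1*, and 0.05 and 0.06 with *COL1A1*. *ATF4* had 0.15 with *COL1A1* in control and 0.02 in TGF-β1 cells, and -0.16 and -0.08 with *COL12A1*. These pairs were picked after their values were seen.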

How the data were processed

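Single cell RNA sequencing of cultured equine endometrial fibroblasts was analysed for 1 control and 1 TGF-β1 library, each pooled from 4 mares. The authors deposited a matrix of UMI counts for each library, genes by cell barcodes, made with Cell Ranger (7.1.0 in the methods, 8.0.1 in the file header) against EquCab3.0 with the Ensembl annotation. The counts were whole numbers for 4384 control and 5124 TGF-β1 barcodes. The study's limits on UMIs, genes and mitochondrial share and its doublet removal had not been applied to them. Reads shared with near-identical gene copies were not examined, and the 5196 genes without a symbol could not be matched to a list.

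The study's limits on cells were applied, a minimum of 20000 UMIs and of 3500 genes and a share of the 13 mitochondrial genes below 4%. The assignment of cells to mares and the doublet calls rested on the reads, and neither they nor the study's edgeR analysis were repeated. UMIs were summed per library and per cluster and scaled to CPM in Python 3.11.15 (numpy 2.4.6, scipy 1.17.1, pandas 2.3.3, matplotlib 3.10.9). Ratios carry no pseudocount. Intervals are exact at the 95% level and cover counting error only, and they are narrow at 210497250 and 219731144 UMIs. Clusters were rebuilt in R 4.3.3 with Seurat 5.3.0 and SeuratObject 5.2.0 (2000 variable genes, 30 dimensions, canonical correlation integration, resolution 0.5), and they are not the study's clusters. Each kept cell was thinned to 20000 UMIs for shares of cells and for correlations on log2(UMI + 1). Scripts were tested on simulated data.

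The genes, the 9 lists and the settings were chosen with earlier results of these data known. The text names the 9 genes, 12 partner enzymes, the up to 4 genes of a list farthest from 0 in each direction past 1.5-fold at 10 CPM or more on average, and the 5 genes with the highest r to each gene, apart from a few genes that are not reported here. Alternatives were all barcodes, a minimum of 10000 UMIs, a mitochondrial limit of 6%, no cells above the 98th percentile of UMIs, averaging per-cell CPM, scaling by a median-of-ratios size factor, no cycling cells, standardised cluster shares, a 2-fold limit, a list minimum of 1 CPM, Spearman's correlation, unthinned cells and deviations from cluster means. The last and the omission of cycling cells were applied to the neighbours of each gene after seeing the data.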

Additional observations from a re-analysis of the deposited data

How the results depend on the processing

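In none of the 8 alternatives in cells or scaling did any of the 9 log2 ratios move beyond its counting interval (72 values, largest move 0.03). *MTHFD2* ranged from 0.93 to 0.94, *ALDH18A1* from 0.72 to 0.75, *PHGDH* from -0.29 to -0.25 and *ATF4* from -0.16 to -0.14, and the number of genes more than 1.5-fold higher was 2 in each. A limit of 2-fold gave 0 of 9 genes. On log2(CPM + 1) of unthinned cells, where depth differs among cells, the median r of the 36 pairs was 0.105 in control and 0.0966 in TGF-β1 cells, above the 0.06 and 0.05 at equal depth, and the cause was not tested. Of the 9 list medians, that of the mTORC1 and MYC list, 0.03, was -0.02 with a minimum of 1 CPM, and the other 8 kept their sign with that minimum and with a median-of-ratios size factor. Counting depth limits *PHGDH* and *ALDH18A1* most, with 0 UMIs in many thinned cells, and differences between mares were not examined, because cells were not assigned to mares here. No paired analysis was possible because the assignment of cells to the mares shared by both libraries rests on genotypes in the reads and was not repeated here.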
